A study of Mus musculus with 23 samples.

Results

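Exposure to maternal metabolic syndrome before birth alone was examined in liver RNA of mice at weaning, by setting pups of affected dams that were nursed by control dams (MetS-Ct) against pups that were born to and nursed by control dams (Ct-Ct). The comparison takes every library of those groups, 6 MetS-Ct and 6 Ct-Ct, which is 12 of the 23 libraries of the study. All animals were C57Bl/6J. Dams were put on a diet with 45% of fat, or on a control diet with 10% of fat, when they were 3 weeks old. They were mated to males on control diet after either 7 or 17 weeks. At birth litters were set to 5 pups and moved to foster dams, so the first word of a group's name gives the birth dam and the second the nursing dam, and Ct-Ct pups were fostered as well. Pups nursed by affected dams served as a further check, with 5 MetS-MetS and 6 Ct-MetS libraries. Livers were taken on postnatal day 21, with the exception of MetS-Ct_97, which is labelled day 22. The labels used here tie no pup to its litter or to a dam's diet length, so siblings may be among the pups of a group, and p-values would then be too small. Whether pups of different groups share a birth dam is not given either.

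The liver of a mouse at weaning is passing from milk, which is rich in fat, to solid food, which is rich in carbohydrate. Milk fat is burned by fatty acid oxidation under PPAR-alpha, whereas carbohydrate induces fatty acid synthesis through the factors SREBP-1c and ChREBP. The same organ is the site of blood cell formation in the fetus, a role that it hands to bone marrow around birth, and it holds resident macrophages, the Kupffer cells, along its sinusoids.

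Library totals were similar in both groups, at 27651612 ± 2961414 counts in MetS-Ct and 27005778 ± 1222640 counts in Ct-Ct (mean ± SD, n = 6 each). Hepatocyte markers were abundant, as befits the labelled tissue, with 11 of them summing to 148293 to 173964 counts scaled to a common library size (CPM) in MetS-Ct and 132312 to 168906 CPM in Ct-Ct. Xist was at 914 CPM or more and the Y-linked Ddx3y at no more than 1 count in each of the 23 libraries, so all fell in the female class. MetS-Ct_70 and MetS-Ct_97 stood apart at one end of the first principal component, which held 30.5% of the variance, and results that they move are given with and without them. Ct-Ct_139 and Ct-Ct_129 lay at its other end, and they were left out singly but not together.

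Few genes separated prenatally exposed pups from controls. Levels below are CPM, with library sizes adjusted by edgeR's TMM factors, and differences are log2 fold changes of MetS-Ct over Ct-Ct ± SE from edgeR's quasi-likelihood test fitted to all 23 libraries. A gene passed at a Benjamini-Hochberg adjusted p under 0.05. None of the 14466 genes tested passed in edgeR (0%), and none in limma-voom. DESeq2 called 12 genes (0.0903%), of which 1 was higher (0.00752%) and 11 were lower (0.0828%) in MetS-Ct. At an unadjusted p under 0.05 edgeR placed 854 genes (5.9%), 407 genes higher (2.81%) and 447 lower (3.09%) in MetS-Ct. The 6 MetS-Ct and the 6 Ct-Ct libraries did not overlap in 37 genes (0.256%), with 14 higher and 23 lower (0.0968% and 0.159%). Among 14466 genes some would separate 6 from 6 libraries by chance, so a lack of overlap is a description and no test. In what follows a gene is said to lie higher or lower when its unadjusted p was under 0.05, and such counts are to be read against those shares.

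Globins and tRNA synthetases made up 6 of the 12 DESeq2 calls. The lower genes were the globins Hba-a1, Hba-a2, Hbb-bs and Hbb-bt, the tRNA synthetases Gars and Lars, the basal transcription factor Gtf2b, the phosphoinositide-binding adaptor Plekha1, the rhomboid protease Rhbdd1, and Klhl2 and Cdr2. The higher gene was Cyp2b10, a drug-metabolising cytochrome induced through the nuclear receptor CAR. Each of them had an edgeR adjusted p above 0.05, with a lowest value of 0.318.

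Red blood cell genes lay lower in MetS-Ct livers, led by the adult globins and by Alas2, the erythroid enzyme that starts haem synthesis. Of 22 erythroid genes listed, 19 were tested and Gata1, Ahsp and Tspo2 were not. Among those tested, 7 lay lower and 0 higher, against 3.09% and 2.81% of all genes, and the median log2 fold change was −0.67, against −0.0015 over all genes. The summed level of the tested genes was 279 to 479 CPM in MetS-Ct and 323 to 941 CPM in Ct-Ct. In whole liver, fewer red cells and less RNA per cell cannot be told apart.

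Hbb-bt (ENSMUSG00000073940), an adult beta globin, was at 13.5 to 28.5 CPM in MetS-Ct (median 21.5), against 29.8 to 94.4 CPM in Ct-Ct (median 46.0). It was the globin whose groups did not overlap, and every MetS-Ct library lay below every Ct-Ct library. The log2 fold change was −1.27 ± 0.26, with a 95% interval of −1.81 to −0.73 and an adjusted p of 0.318 in edgeR and 0.00674 in DESeq2. Hba-a2, an alpha globin, was at 27.7 to 43.6 CPM in MetS-Ct (median 38.0), against 42.4 to 141 CPM in Ct-Ct (median 73.9). Its ranges met at their edge, with the highest MetS-Ct library just above the lowest Ct-Ct library. It differed by −1.16 ± 0.26 (adjusted p = 0.318 in edgeR and 0.0263 in DESeq2). Hbb-bs was at 79.8 to 146 CPM in MetS-Ct (median 98.3), against 124 to 346 CPM in Ct-Ct (median 194), and Hba-a1 at 39.4 to 68.3 CPM (median 53.7), against 59.6 to 198 CPM (median 106). Both overlapped between the groups. They differed by −1.02 ± 0.25 and −1.09 ± 0.27, with DESeq2 adjusted p values of 0.0379 and 0.037. Hba-a1 and Hba-a2, like Hbb-bs and Hbb-bt, are near-identical copies, and how reads that match both were counted is not given, so the split of a pair between its copies is uncertain.

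Genes of the red cell's membrane and haem synthesis lay on the same side, whereas an early regulator did not. Alas2 was at 14.95 to 21.0 CPM in MetS-Ct (median 16.2), against 19.6 to 44.0 CPM in Ct-Ct (median 26.4), a difference of −0.74 ± 0.19. Slc4a1, the band 3 anion exchanger, was at 1.09 to 3.20 CPM (median 1.62), against 1.76 to 4.65 CPM (median 3.36), and differed by −0.71 ± 0.30. Trim10, an erythroid ubiquitin ligase, differed by −1.04 ± 0.33. Ranges overlapped in each of these genes. Klf1, the transcription factor that switches on adult globin genes, was at 3.08 to 6.36 CPM in MetS-Ct (median 4.35), against 1.84 to 5.01 CPM in Ct-Ct (median 3.98), and its difference of 0.27 ± 0.23 had the opposite sign. Without any 1 of the 12 libraries, 6 to 9 erythroid genes lay lower, and without MetS-Ct_70 and MetS-Ct_97 together 6 did, with a list median of −0.43.

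Among pups nursed by affected dams the same genes were on the other side of 0. Hbb-bt was at 44.0 to 77.5 CPM in MetS-MetS (median 57.9), against 23.1 to 54.6 CPM in Ct-MetS (median 41.7), and Hba-a2 at 65.9 to 124 CPM (median 93.0), against 31.3 to 77.9 CPM (median 56.1). Here 4 erythroid genes lay higher and 0 lower, against 8.56% and 7.02% of all genes, with a median of 0.36. The prenatal difference in pups nursed by affected dams minus that in pups nursed by controls was 1.78 ± 0.37 for Hbb-bt (adjusted p = 0.42 in edgeR and 0.0086 in DESeq2) and 1.91 ± 0.37 for Hba-a2 (0.0026 in DESeq2). No gene passed this test of the difference in edgeR (0%), 787 had an unadjusted p under 0.05 (5.44%), and the 4 DESeq2 calls (0.0278%) were the 4 globins.

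**Figure D1:**
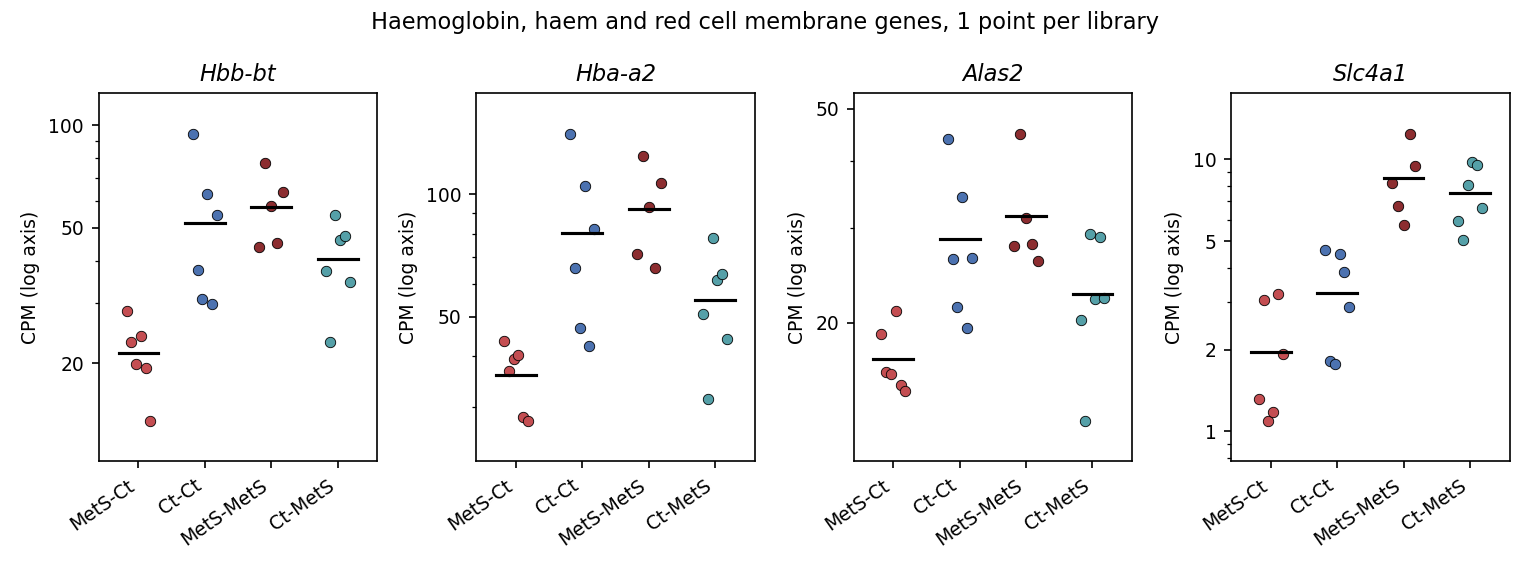
Level in CPM (log axis) of Hbb-bt, Hba-a2, Alas2 and Slc4a1 in each liver library of the 4 groups, 1 point per animal, with a bar at the group mean. All 6 MetS-Ct points lie below all 6 Ct-Ct points for Hbb-bt, the MetS-MetS means of both globins and Alas2 lie above those of Ct-MetS, and Slc4a1 is lowest in MetS-Ct, at a mean of 1.96 CPM against 7.49 CPM in Ct-MetS.

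Set against pups with the opposite exposure, exposed through nursing only (Ct-MetS), erythroid membrane genes passed the edgeR test. This comparison shares its MetS-Ct libraries with the one above. Its groups differ in both birth dam and nursing dam, so by itself it does not give the part of each exposure. The comparison called 11 genes (0.076%), 5 of them lower in MetS-Ct, and limma-voom called 8 (0.0553%). At an unadjusted p under 0.05 there were 1824 (12.6%). Slc4a1 averaged 1.96 ± 0.95 CPM in MetS-Ct and 7.49 ± 1.94 CPM in Ct-MetS (SD, n = 6 each), a log2 fold change of −1.93 ± 0.30 (edgeR adjusted p = 0.0236). Trim10 was lower than in Ct-MetS by 1.81 on the log2 scale. Ermap, a blood group antigen carrier, was lower by 1.95 and Rhag, the Rh-associated ammonia channel, by 2.70. Their edgeR adjusted p values were 0.0286, 0.0286 and 0.0346. Slc4a1 and Trim10 differed less from Ct-Ct, as given above, so part of their difference here lay between Ct-Ct and Ct-MetS. Ermap and Rhag did not lie lower than in Ct-Ct by the criterion used. Stom, the membrane protein stomatin, was lower than in Ct-MetS by 0.49 (adjusted p = 0.0343). Genes higher than in Ct-MetS included Prodh, the enzyme that starts proline breakdown, by 1.10, and Sfxn5, a mitochondrial carrier of the sideroflexin family, by 0.58.

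The beta globin promoters are shown because Hbb-bt had the smallest DESeq2 p of all genes and Hbb-bs is its near-identical copy. Each runs from 250 bases before to 50 bases after the gene's start in RefSeq's GRCm38.p6 table, 300 bases 5′ to 3′ on the gene's strand, with capitals at CCAAT and, in Hbb-bs, CCACACCC, the box that Klf1 is known to bind. Hbb-bs lies at chr7:103827879-103828178 and Hbb-bt at chr7:103813874-103814173, both on the minus strand.
Hbb-bs: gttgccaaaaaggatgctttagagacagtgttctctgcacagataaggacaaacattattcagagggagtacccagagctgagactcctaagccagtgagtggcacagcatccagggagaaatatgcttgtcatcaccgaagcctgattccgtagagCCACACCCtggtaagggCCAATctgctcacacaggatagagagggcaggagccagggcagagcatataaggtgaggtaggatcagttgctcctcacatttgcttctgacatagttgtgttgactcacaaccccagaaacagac
Hbb-bt: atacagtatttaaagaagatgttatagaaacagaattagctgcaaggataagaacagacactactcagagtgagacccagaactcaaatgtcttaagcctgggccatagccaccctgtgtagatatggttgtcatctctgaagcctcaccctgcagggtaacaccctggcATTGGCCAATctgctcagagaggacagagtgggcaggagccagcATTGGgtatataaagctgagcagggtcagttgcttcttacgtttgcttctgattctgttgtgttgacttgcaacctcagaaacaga
In Hbb-bs the CCACACCC box spans bases −93 to −86 from the start and a CCAAT box spans −76 to −72. Hbb-bt holds CCAAT at −75 to −71 and, on the opposite strand, at −80 to −76 and −36 to −32. Read on both strands, CCAAT occurs in 37.4% of 32851 promoters and in 10 of the 17 erythroid genes with a promoter in the table (58.8%), and CCACACCC in 3.56% of all and in 1 of those 17. A match is a description of the letters and shows no binding.

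Genes that charge tRNA with amino acids lay lower in MetS-Ct by a small amount, many at once. The 20 cytosolic aminoacyl-tRNA synthetases were collected after Gars, Lars and Sars had been seen among the leading genes, so their count is a description. Of the 20, 8 lay lower and 0 higher, 19 had a log2 fold change below 0 (50.4% of all genes did), and the median was −0.19. Gars, the glycine enzyme, was at 46.5 to 55.9 CPM in MetS-Ct (median 52.3), against 56.9 to 78.1 CPM in Ct-Ct (median 63.5). Lars, the leucine enzyme, was at 41.8 to 51.3 CPM (median 47.1), against 53.6 to 61.8 CPM (median 57.1), and Sars, the serine enzyme, at 52.8 to 57.1 CPM (median 53.9), against 59.4 to 67.5 CPM (median 60.5). In each of these 3 every MetS-Ct library lay below every Ct-Ct library. Gars differed by −0.34 ± 0.07 (adjusted p = 0.318 in edgeR and 0.0345 in DESeq2), Lars by −0.29 ± 0.07 (0.0316 in DESeq2) and Sars by −0.19 ± 0.08.

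Cars, the cysteine enzyme, had the widest difference of the family, at 23.6 to 42.9 CPM in MetS-Ct (median 33.8), against 41.3 to 63.6 CPM in Ct-Ct (median 54.0), or −0.64 ± 0.16. Only its extremes overlapped. Mars, Nars, Yars and Aars, the enzymes for methionine, asparagine, tyrosine and alanine, differed by −0.31, −0.28, −0.23 and −0.26. Qars, for glutamine, was the member above 0, at 0.03. The 17 mitochondrial synthetases, a second family of enzymes, had 4 members lower, Fars2, Iars2, Vars2 and Tars2, and a median of −0.10. Leaving out 1 library gave 6 to 12 lower cytosolic synthetases, with 12 without Ct-Ct_33, and leaving out MetS-Ct_70 and MetS-Ct_97 together gave 6, with a median of −0.11.

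**Figure D2:**
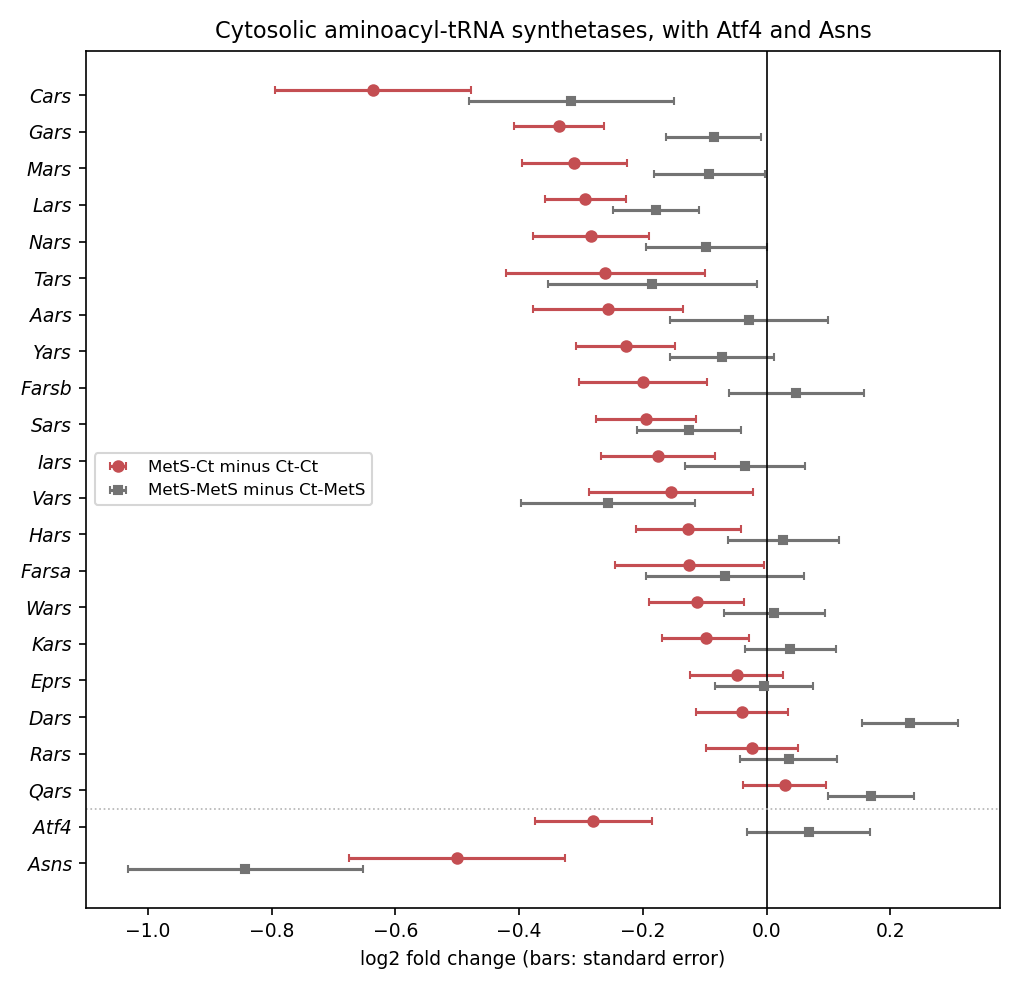
Log2 fold change ± SE of each cytosolic aminoacyl-tRNA synthetase in MetS-Ct over Ct-Ct (red circles) and in MetS-MetS over Ct-MetS (grey squares), from edgeR, in order of the first, with Atf4 and Asns under a dotted line. Circles lie below 0 in 19 of the 20 synthetases, and squares lie on both sides of 0.

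Atf4 and Asns lay with them. Atf4 (activating transcription factor 4), which switches on amino acid transport and synthesis genes when amino acids run short, was at 63.5 to 74.2 CPM in MetS-Ct (median 69.99), against 79.3 to 99.8 CPM in Ct-Ct (median 82.2). Asns, asparagine synthetase and a known Atf4 target, was at 5.28 to 8.16 CPM (median 7.54), against 8.57 to 11.99 CPM (median 9.83). Neither gene overlapped between the groups. They differed by −0.28 ± 0.09 and −0.50 ± 0.17. Of 28 tested genes of a list of Atf4 and endoplasmic reticulum stress genes, 4 lay lower, namely Atf4, Asns, the proline synthesis enzyme Aldh18a1 (−0.78) and the stress sensor Ern1 (−0.34), and 0 higher, with a median of −0.14. Slc7a11 was not tested. Without any 1 library, 2 to 7 lay lower.

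In pups nursed by affected dams 7 synthetases had a log2 fold change above 0 and 13 below. There 2 lay higher, Dars and Qars, and 1 lower, Lars (−0.18), against 8.56% and 7.02% of all genes, with a median of −0.05, and Atf4 differed by 0.07. Asns was at 3.47 to 6.74 CPM in MetS-MetS (median 4.57), against 5.75 to 12.8 CPM in Ct-MetS (median 7.58), or −0.84 ± 0.19 with an edgeR adjusted p of 0.12. Asns therefore lay lower with prenatal exposure under both nursing dams, in libraries that the comparisons do not share.

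The promoters of Asns and of 3 synthetases with the same element are shown because Asns and Gars did not overlap between the groups and the others hold the same letters. The letters searched were TGATGNAA on both strands, the core of the CEBP-ATF response element that Atf4 is known to bind, in the same 300-base windows, with the element in capitals. Asns lies at chr6:7693160-7693459 on the minus strand, Gars at chr6:55037751-55038050 on the plus strand, Tars at chr15:11399609-11399908 on the minus strand and Iars at chr13:49681880-49682179 on the plus strand.
Asns: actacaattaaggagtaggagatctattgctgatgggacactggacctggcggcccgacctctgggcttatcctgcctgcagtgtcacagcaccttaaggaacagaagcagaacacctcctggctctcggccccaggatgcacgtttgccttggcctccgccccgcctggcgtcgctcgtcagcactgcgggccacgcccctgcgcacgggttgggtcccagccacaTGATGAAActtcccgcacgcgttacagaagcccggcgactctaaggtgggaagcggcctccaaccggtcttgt
Gars: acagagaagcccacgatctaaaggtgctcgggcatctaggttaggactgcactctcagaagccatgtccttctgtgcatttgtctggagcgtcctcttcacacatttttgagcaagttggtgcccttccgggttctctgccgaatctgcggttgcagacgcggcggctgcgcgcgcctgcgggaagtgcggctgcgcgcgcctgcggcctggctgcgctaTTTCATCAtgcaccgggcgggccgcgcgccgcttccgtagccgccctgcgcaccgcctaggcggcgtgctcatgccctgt
Tars: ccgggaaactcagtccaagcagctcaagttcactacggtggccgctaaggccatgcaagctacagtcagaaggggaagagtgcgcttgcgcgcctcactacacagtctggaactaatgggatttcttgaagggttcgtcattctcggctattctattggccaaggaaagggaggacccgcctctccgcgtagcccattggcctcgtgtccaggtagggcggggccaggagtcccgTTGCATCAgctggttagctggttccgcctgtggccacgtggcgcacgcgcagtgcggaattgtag
Iars: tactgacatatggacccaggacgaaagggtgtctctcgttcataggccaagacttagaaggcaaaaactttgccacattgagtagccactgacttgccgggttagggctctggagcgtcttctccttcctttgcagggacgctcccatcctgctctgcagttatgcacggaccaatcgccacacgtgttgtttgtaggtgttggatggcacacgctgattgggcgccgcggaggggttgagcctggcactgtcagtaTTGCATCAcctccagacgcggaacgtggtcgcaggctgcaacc
The element spans −23 to −16 from the start in Asns on the gene's strand. On the opposite strand it spans −30 to −23 in Gars, −15 to −8 in Tars and 8 to 15 in Iars. It occurred in 1304 of the 32851 promoters (3.97%), in 5 of the 13 cytosolic synthetases with a promoter in the table (38.5%; Aars, Gars, Iars, Tars and Yars) and in 0 of 14 mitochondrial synthetases. Of 27 genes of the Atf4 list it was in 5 (18.5%), namely Asns, Trib3, Chac1, Slc7a11 and Herpud1. Gars lay lower, as given above, with an edgeR adjusted p above 0.05. Tars (−0.26 ± 0.16) and Iars (−0.18 ± 0.09) were also below 0 but did not lie lower by the criterion used. Aars and Yars, likewise below 0, held the element, whereas Sars and Mars, which lay lower, did not. Lars, Cars and Nars had no promoter in the table. As with the globin promoters, a match shows no binding.

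Other genes lower in MetS-Ct have varied roles. Plekha1 (ENSMUSG00000040268) was at 17.4 to 22.5 CPM in MetS-Ct (median 20.4), against 24.6 to 32.5 CPM in Ct-Ct (median 26.2), without overlap. It differed by −0.46 ± 0.10 (adjusted p = 0.318 in edgeR and 0.0379 in DESeq2). Among pups nursed by affected dams Plekha1 was at 15.5 to 19.6 CPM in MetS-MetS (median 15.8), against 19.1 to 29.4 CPM in Ct-MetS (median 23.3). That is a difference of −0.50 ± 0.11, with an edgeR adjusted p of 0.12. The difference between these prenatal effects was −0.04 ± 0.15.

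Gtf2b and Klhl2 also separated control-nursed pups without overlap. Gtf2b was at 20.1 to 28.5 CPM in MetS-Ct (median 23.2), against 30.4 to 45.0 CPM in Ct-Ct (median 32.1), and differed by −0.53 ± 0.11, with −0.07 in pups nursed by affected dams. Klhl2, a substrate adaptor of a ubiquitin ligase, was at 27.5 to 31.9 CPM (median 30.3), against 33.4 to 40.7 CPM (median 36.1), and differed by −0.29 ± 0.07. Their differences in pups nursed by affected dams were close to 0. Rhbdd1 differed by −0.34 ± 0.07, Cdr2 by −0.73 ± 0.17 and Ntng2, a netrin-related cell surface protein, by −0.57 ± 0.13. Pdhb, a subunit of pyruvate dehydrogenase, was at 136 to 181 CPM in MetS-Ct (median 155), against 187 to 246 CPM in Ct-Ct (median 211), also without overlap, and differed by −0.46 ± 0.11. Gramd1c, a sterol transfer protein, was at 59.0 to 105 CPM (median 85.8), against 108.8 to 134 CPM (median 116), and differed by −0.51 ± 0.15. None of these genes passed the edgeR test of the difference between nursing settings.

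Among genes higher in MetS-Ct, Cyp2b10 had the widest fold change. It was at 0.875 to 13.3 CPM in MetS-Ct (median 2.50), against 0.0383 to 0.882 CPM in Ct-Ct (median 0.356). The lowest MetS-Ct library lay just below the highest Ct-Ct library and the other 5 lay above it. The log2 fold change was 3.25 ± 0.77, with a 95% interval of 1.65 to 4.84 and an adjusted p of 0.404 in edgeR and 0.0316 in DESeq2, and it was 2.31 without MetS-Ct_53. Por, the reductase that passes electrons to the cytochromes, was at 190 to 1156 CPM (median 709), against 150 to 672 CPM (median 222), or 1.12 ± 0.41. Nr1i3, which encodes CAR itself, was at 151 to 321 CPM (median 274), against 76.9 to 258 CPM (median 158), or 0.60 ± 0.27. Both overlapped between the groups.

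Of 27 drug metabolism genes, 4 lay higher (Cyp2b10, Cyp3a13, Por and Nr1i2, which encodes the nuclear receptor PXR) and 1 lower (Cyp2d9), with a median of 0.32. Cyp3a13 was at 105 to 301 CPM in MetS-Ct (median 197), against 80.1 to 171 CPM in Ct-Ct (median 118), or 0.70 ± 0.23, and 0.42 without MetS-Ct_70 and MetS-Ct_97. Cyp2d9 was at 88.1 to 185 CPM (median 144), against 178 to 272 CPM (median 235), or −0.66 ± 0.20. Their ranges overlapped. In pups nursed by affected dams 12 lay higher, against 8.56% of all genes there, with a median of 0.62, among them Por (1.21), and Nr1i3 was at 0.88. Without MetS-Ct_70 and MetS-Ct_97 together 1 lay higher and 1 lower, with a median of 0.17.

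Further genes higher in MetS-Ct included enzymes, carriers and a secreted binding protein. Tk1, the thymidine kinase of DNA synthesis, was at 36.8 to 64.0 CPM in MetS-Ct (median 49.6), against 27.6 to 46.0 CPM in Ct-Ct (median 30.4), or 0.64 ± 0.15. Sfxn1, the mitochondrial serine carrier, was at 67.3 to 114 CPM (median 104), against 54.6 to 79.4 CPM (median 64.0), or 0.61 ± 0.15. In both genes 1 library set the overlap, Ct-Ct_33 in Tk1 and MetS-Ct_149 in Sfxn1. Igfbp3, which binds insulin-like growth factors in plasma, was at 73.4 to 108 CPM (median 95.6), against 51.9 to 87.3 CPM (median 67.2), or 0.47 ± 0.12, with −0.07 in pups nursed by affected dams. Slc22a26, an organic anion transporter, was at 47.2 to 86.3 CPM (median 56.8), against 15.4 to 42.8 CPM (median 30.3), or 1.01 ± 0.31, and its groups did not overlap. The difference of Slc22a26 in pups nursed by affected dams was 0.67 ± 0.32. Mcrip2 (0.78 ± 0.20), Etfbkmt (0.70 ± 0.18), Oplah (0.58 ± 0.16) and St6galnac6 (0.31 ± 0.09) complete the leading higher genes. Oplah recycles oxoproline of the glutathione cycle and Etfbkmt methylates the electron transfer flavoprotein of fatty acid oxidation. Mcrip2, Etfbkmt and Oplah had the same sign in pups nursed by affected dams, at 0.52, 0.44 and 0.39, and St6galnac6 was at −0.02.

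Kupffer cell and macrophage markers lay slightly higher in MetS-Ct. All 20 listed markers were tested, 9 lay higher and 0 lower, all 20 had a log2 fold change above 0, against 49.6% of all genes, and the median was 0.28. Their summed level was 780.0 to 872 CPM in MetS-Ct and 589 to 759.7 CPM in Ct-Ct, without overlap. Ctss, a lysosomal protease of macrophages, was at 38.7 to 45.6 CPM (median 40.2), against 29.2 to 38.7 CPM (median 32.5), and C1qb, a chain of complement C1q, at 52.5 to 59.3 CPM (median 54.5), against 40.7 to 52.4 CPM (median 45.5). Neither overlapped, by a narrow margin. They differed by 0.32 ± 0.12 and 0.27 ± 0.12, and Csf1r, the receptor that keeps macrophages alive, by 0.27 ± 0.11. Cd14, a co-receptor for bacterial lipopolysaccharide, was at 1.84 to 6.21 CPM (median 2.48), against 1.23 to 2.15 CPM (median 1.77), or 0.90 ± 0.32.

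Cfp and Treml4, which are not on that list, were also higher without overlap. Cfp, the complement regulator properdin, was at 39.2 to 43.4 CPM in MetS-Ct (median 40.7), against 26.8 to 36.3 CPM in Ct-Ct (median 33.5), or 0.33 ± 0.12. Treml4, a receptor of splenic and blood macrophages, was at 4.19 to 5.43 CPM (median 4.44), against 2.71 to 3.70 CPM (median 3.44), or 0.49 ± 0.17. Markers of neutrophils and monocytes had 13 of 14 log2 fold changes above 0 and a median of 0.26, near that of the Kupffer markers. That median ran from 0.04 to 0.55 with 1 library left out. Lymphocyte markers had 10 of 19 above 0 (median 0.03) and hepatocyte markers 10 of 11 (median 0.09). In these 3 lists 0 met the criterion. Of other cells along the sinusoids, 2 of 19 endothelial markers lay higher, Lyve1 and Pecam1 (14 of 19 above 0, median 0.09). So did 2 of 14 stellate and fibroblast markers (10 of 14 above 0, median 0.14), and 0 lay lower in both. Those counts ranged from 0 to 4 with 1 library left out. Without 1 library 3 to 11 Kupffer markers lay higher, with 3 without Ct-Ct_139 and 5 without Ct-Ct_129, and without MetS-Ct_70 and MetS-Ct_97 together 6 did, with a median of 0.29. In pups nursed by affected dams 0 lay higher and 1 lower, against 8.56% and 7.02% of all genes (Marco, a scavenger receptor, −0.64), with a median of −0.0033. The part of macrophage or red cell content in the other differences between MetS-Ct and Ct-Ct was not tested.

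Enzymes that burn fatty acids lay higher in MetS-Ct by a modest amount. Of 34 genes 33 were tested (Etfb was not), 12 lay higher and 0 lower, 32 had a log2 fold change above 0, and the median was 0.31. Cpt1a, the gate for entry of long-chain fatty acids into mitochondria, was at 482 to 830 CPM in MetS-Ct (median 671), against 357 to 672 CPM in Ct-Ct (median 497), or 0.47 ± 0.18. Slc25a20, the carnitine carrier of the inner membrane, was at 79.4 to 164 CPM (median 105), against 58.7 to 105 CPM (median 73.5), or 0.54 ± 0.19. Both overlapped between the groups. Cpt2, Acadm and Acadl, which hand on and shorten the imported chains, differed by 0.40, 0.40 and 0.30, and Hsd17b4, of the peroxisomal pathway, by 0.27. Acot1, a thioesterase with close paralogs that may share reads, was at 2.07 to 21.1 CPM (median 4.99), against 1.72 to 3.92 CPM (median 2.38), or 1.62 ± 0.62, and 1.05 without MetS-Ct_53.

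In pups nursed by affected dams, where 8.56% of all genes lay higher, 18 of the 33 oxidation genes did, with a median of 0.31. The count in control-nursed pups ranged from 4 without Ct-Ct_129 to 18 without Ct-Ct_33, and was 9 without MetS-Ct_70 and MetS-Ct_97, with a median of 0.27. Genes of triglyceride handling followed in part, with 6 of 26 higher, 1 lower and a median of 0.13. Without MetS-Ct_70 and MetS-Ct_97 together 1 lay higher and 0 lower (median 0.17), and 3 lay higher without any 1 of MetS-Ct_53, MetS-Ct_70, MetS-Ct_97, Ct-Ct_129 and Ct-Ct_139, with a median of 0.04 without MetS-Ct_53. Gpat4, which starts glycerolipid synthesis, was at 102 to 225 CPM (median 141) in MetS-Ct, against 87.5 to 124 CPM (median 99.9) in Ct-Ct, or 0.56 ± 0.18, and 0.26 without MetS-Ct_70 and MetS-Ct_97. Pnpla2, the lipase that starts triglyceride breakdown, was at 48.4 to 133 CPM (median 101), against 46.2 to 92.6 CPM (median 63.05), or 0.59 on the log2 scale. Plin3, a lipid droplet coat protein, was the lower member, at −0.27.

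Fatty acid synthesis enzymes lay lower in MetS-Ct as a list, and that result rested on a few libraries of both groups. All 23 were tested, 7 lay lower and 0 higher, and the median was −0.63. MetS-Ct_70 and MetS-Ct_97 had a median deviation of −2.01 each from the Ct-Ct mean, whereas the other 4 MetS-Ct libraries lay between −0.53 and 0.40 and the 6 Ct-Ct libraries between −0.73 and 1.002. Without both, 2 lay higher and 1 lower, with a median of −0.12. The count also moved with single libraries, at 1 lower without Ct-Ct_129, 2 without Ct-Ct_139, 3 without MetS-Ct_70, 3 without MetS-Ct_97 and up to 9 otherwise.

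Scd1, which puts the first double bond into fatty acids, was at 318 to 15745 CPM in MetS-Ct (median 9128), against 2906 to 23015 CPM in Ct-Ct (median 13257). MetS-Ct_70 was at 318 CPM and MetS-Ct_97 at 939.9 CPM, below every Ct-Ct library. Scd1 differed by −0.81 ± 0.64, and by −0.26 without them. Fasn, the fatty acid synthase, was at 85.2 to 1132 CPM (median 500), against 298 to 3850 CPM (median 866), or −1.47 ± 0.63, and Acaca, which makes its malonyl-CoA, at 81.7 to 294 CPM (median 193), against 159 to 916 CPM (median 289), or −1.10 ± 0.42. Elovl6, which lengthens the product, was at 7.56 to 251 CPM (median 78.3), against 64.5 to 1092 CPM (median 180.0), or −1.87 ± 0.81. Without MetS-Ct_70 and MetS-Ct_97, Fasn, Acaca and Elovl6 were at −0.98, −0.74 and −1.32. Leaving out the control library Ct-Ct_129 alone gave −0.98, −0.67 and −1.14. Tkfc, a kinase of fructose metabolism, differed by −0.74 ± 0.25 with all libraries. It kept an unadjusted p under 0.05 without MetS-Ct_70 and MetS-Ct_97 together (−0.55) and without Ct-Ct_129 (−0.69).

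Of the factors that drive these enzymes, Mlxipl, which encodes ChREBP, lay lower at −0.34 ± 0.14. It was 1 of 2 lower genes among 18 lipogenic regulators tested, where 1 lay higher and the median was −0.0028. Without MetS-Ct_70 and MetS-Ct_97 together 0 of the regulators lay lower, so Mlxipl missed the criterion. The same held without MetS-Ct_70 alone and without Ct-Ct_129 alone. Srebf1, which encodes SREBP-1c, was at −0.17 ± 0.30, with a 95% interval of −0.79 to 0.45. Pnpla3, a lipid droplet protein controlled by both, was at −1.24 ± 0.67. Cholesterol synthesis genes had 0 of 23 at the criterion and a median of −0.23, which turned to 0.10 without MetS-Ct_70 and MetS-Ct_97 and ran from −0.61 to −0.094 with 1 library left out. In the list of cell cycle genes 0 of 31 met it, at a median of −0.13 that turned to 0.21 without MetS-Ct_70 and MetS-Ct_97, and to 0.036 and 0.015 without the first or the other of them. The same genes varied widely between MetS-Ct pups, with a median SD of 0.92 in log2 CPM, against 0.49 in Ct-Ct, and 30 of the 31 had the larger SD in MetS-Ct, against 55.7% of all genes.

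**Figure D3:**
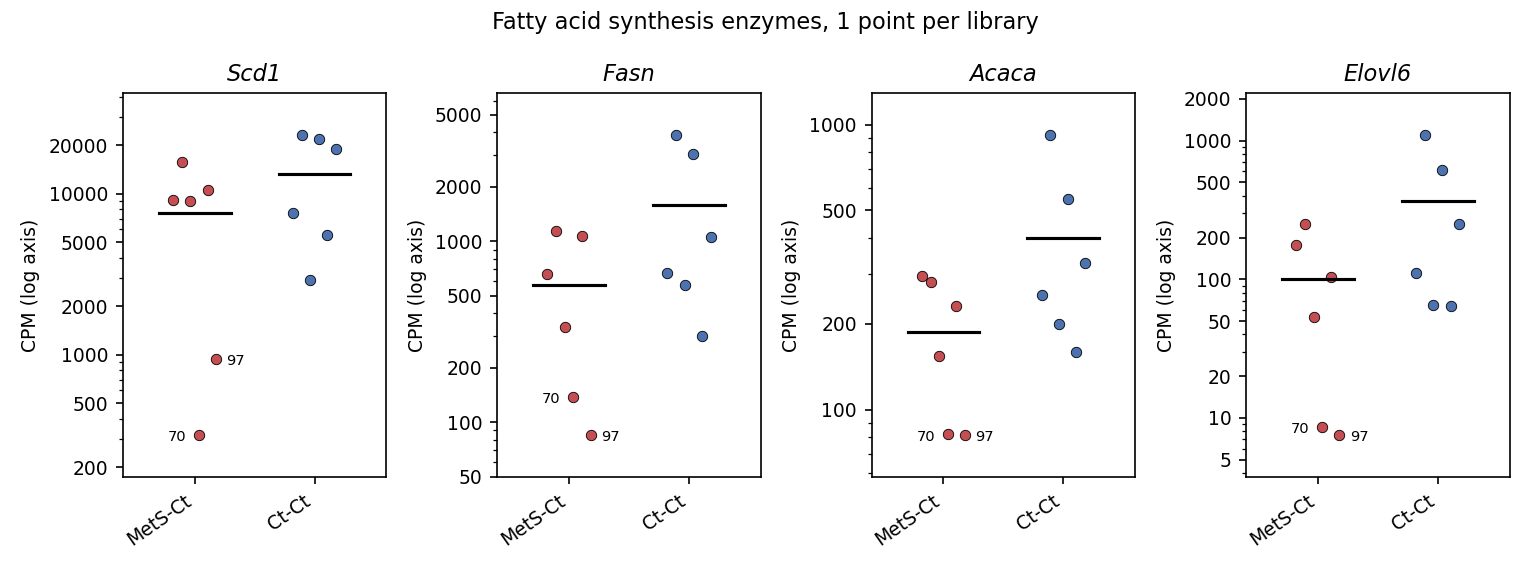
Level in CPM (log axis) of Scd1, Fasn, Acaca and Elovl6 in each MetS-Ct and Ct-Ct liver library, 1 point per animal, with MetS-Ct_70 and MetS-Ct_97 marked and a bar at the group mean. The marked libraries hold the lowest MetS-Ct levels, down to 318 CPM for Scd1, and the other 4 lie within or near the Ct-Ct range.

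Imprinted genes, of which 1 parental copy is silenced and many of which set fetal growth, were not shifted by prenatal exposure as a list. Of 45 genes 33 were tested, 0 lay higher and 1 lower, and the median was 0.0024. The lower gene was Ppp1r9a, an actin-binding protein, at 15.6 to 27.4 CPM in MetS-Ct (median 20.9), against 21.3 to 31.8 CPM in Ct-Ct (median 28.0), or −0.39 ± 0.12. Its ranges overlapped.

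Plagl1, a zinc finger factor set in a network of imprinted growth genes, was at 5.89 to 11.1 CPM in MetS-Ct (median 7.35), against 5.19 to 11.4 CPM in Ct-Ct (median 6.36). The ranges covered each other almost fully. It differed by 0.06 ± 0.21, with a 95% interval of −0.37 to 0.49, and its sign turned when some single libraries were left out. Cdkn1c, a cell cycle inhibitor, was at 5.56 to 12.2 CPM (median 8.45), against 4.28 to 10.7 CPM (median 7.40), or 0.21 ± 0.21, with an interval of −0.21 to 0.64 and a value of −0.020 without MetS-Ct_70 and MetS-Ct_97. H19, a long noncoding RNA, was at 157.5 to 853 CPM (median 408), against 59.2 to 780.1 CPM (median 156), or 0.74 ± 0.63, with an interval of −0.58 to 2.06 and a value of 1.41 without Ct-Ct_130. Igf2, the fetal growth factor beside H19, was at 3.03 to 11.3 CPM (median 6.26), against 3.49 to 26.6 CPM (median 5.11), and its difference of −0.43 ± 0.60 turned to 0.35 without Ct-Ct_130. Dlk1, a fetal membrane protein, had totals of 22 counts over the MetS-Ct libraries and 16 over the Ct-Ct libraries and was not tested. In pups nursed by affected dams 1 imprinted gene lay higher and 6 lower, against 8.56% and 7.02% of all genes, with a median of −0.23, and H19 was at −1.90 ± 0.70.

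**Figure D4:**
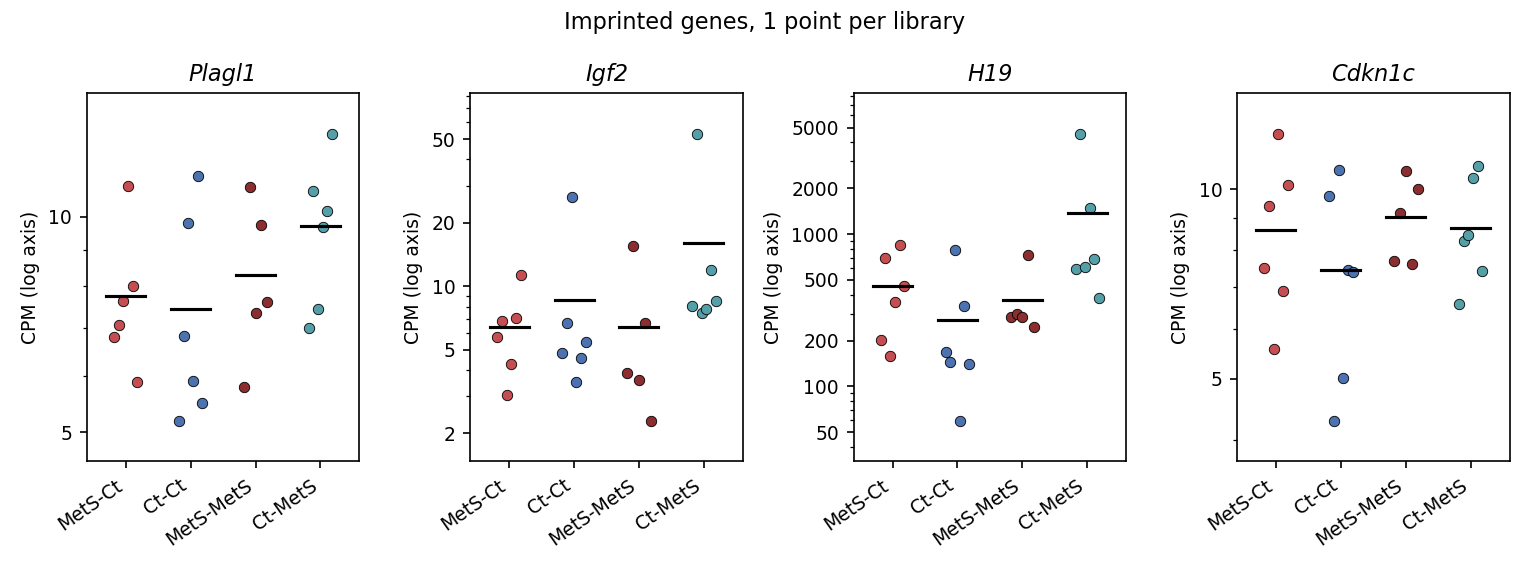
Level in CPM (log axis) of the imprinted genes Plagl1, Cdkn1c, H19 and Igf2 in each liver library of the 4 groups, 1 point per animal, with a bar at the group mean. MetS-Ct and Ct-Ct points overlap in each gene, with intervals of the Plagl1, Cdkn1c and H19 differences that include 0.

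Matrix, gluconeogenesis and bile acid genes had list medians near 0 and few members at the criterion. Of 28 genes of gluconeogenesis, glycogen and fructose use 1 lay higher and 1 lower, with a median of −0.0067. Of 20 bile acid genes tested 1 lay higher and 0 lower, with a median of 0.014. Of 31 extracellular matrix genes 2 lay higher, Sparc (0.19) and Bgn (0.20), and 0 lower, with a median of 0.03 that ran from −0.051 to 0.17 with 1 library left out. Tgfb1, the main fibrosis cytokine, was at 0.11 ± 0.11, Col1a1 and Col3a1, fibrillar collagens, at −0.11 ± 0.35 and 0.25 ± 0.19. Pck1 of gluconeogenesis was at 0.43 ± 0.45 and Cyp7a1, the rate-limiting enzyme of bile acid synthesis, at 1.03 ± 0.68. The Cyp7a1 difference turned to −0.11 without MetS-Ct_70 and MetS-Ct_97, and the sign of Col1a1 turned when some single libraries were left out. Missing the criterion does not show that the groups were alike.

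The sign of a gene's difference in control-nursed pups recurred more often than not in pups nursed by affected dams, whose libraries that comparison did not use. No gene passed in edgeR for MetS-MetS against Ct-MetS (0%), and 2255 had an unadjusted p under 0.05 (15.6%). Over all 14466 genes 61.9% had the same sign in both comparisons, and of the 854 genes at an unadjusted p under 0.05 in MetS-Ct against Ct-Ct 72.2% did. Among genes at an unadjusted p under 0.01 the share was 68.5%, and of the 12 DESeq2 calls 7 had the same sign (58.3%). Of the 854, 155 also had an unadjusted p under 0.05 in the same direction and 20 in the opposite direction, and of the 12 DESeq2 calls 2 and 3 did. By list, fatty acid oxidation had medians of 0.31 in both and drug metabolism 0.32 and 0.62, whereas erythroid genes had −0.67 and 0.36 and Kupffer markers 0.28 and −0.0033.

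**Figure D5:**
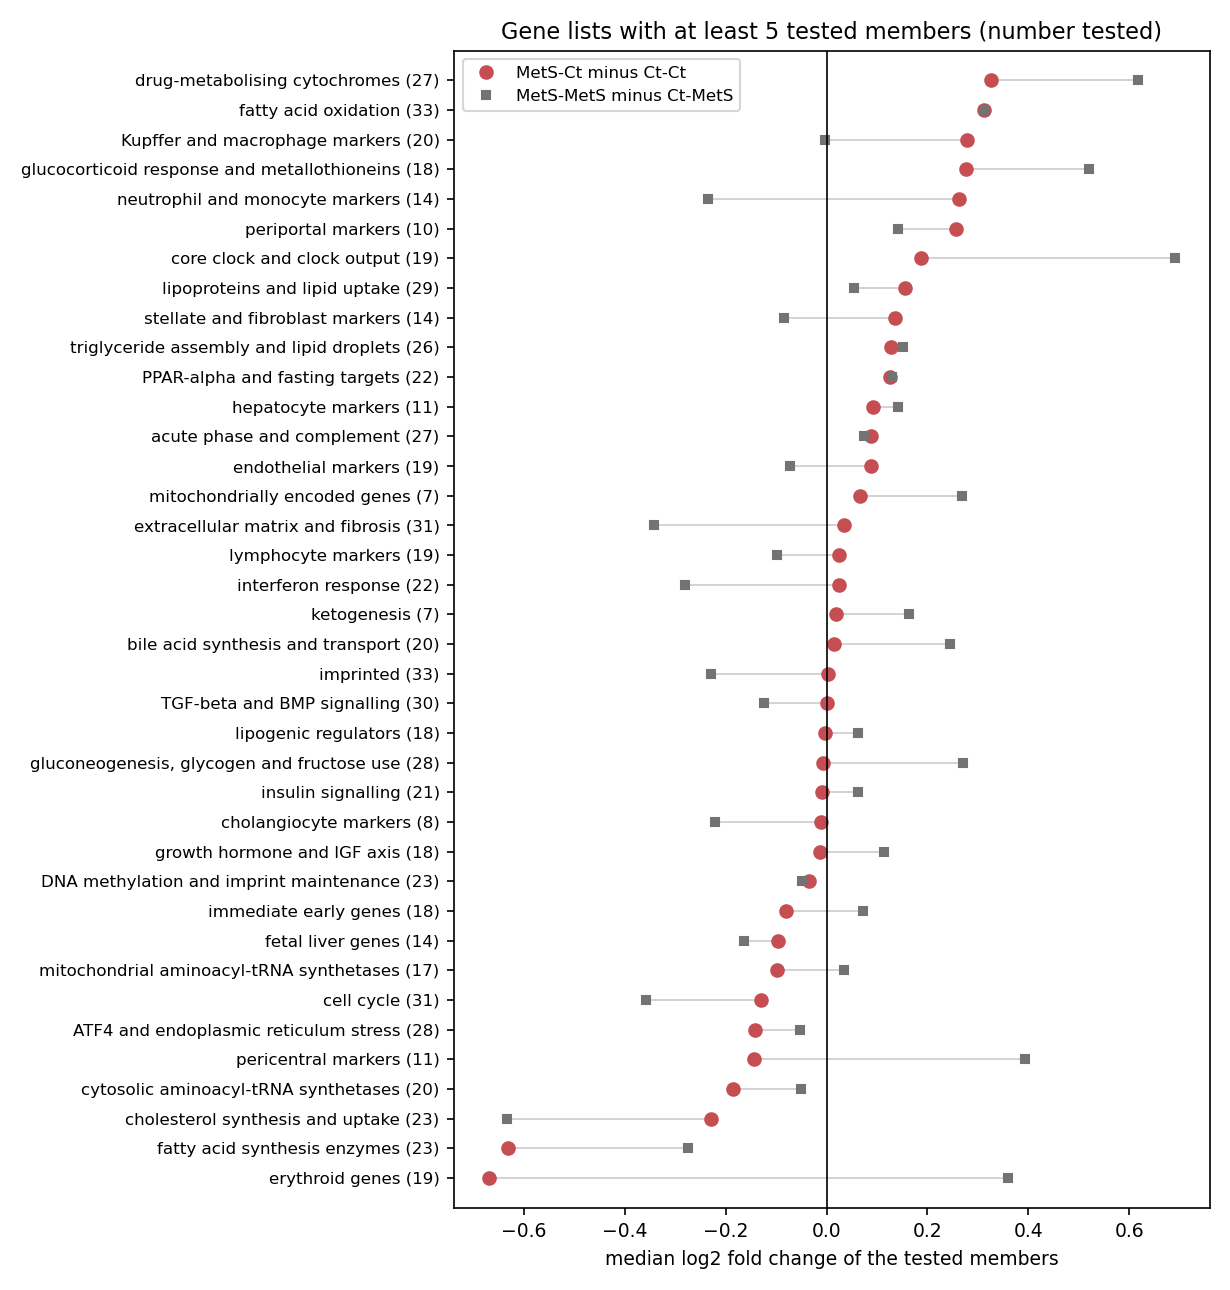
Median log2 fold change of each gene list in MetS-Ct over Ct-Ct (red circles) and in MetS-MetS over Ct-MetS (grey squares), for lists with at least 5 tested genes and without the skeletal muscle list, with a line at 0. Erythroid genes and fatty acid synthesis enzymes lie farthest below 0 in control-nursed pups, at −0.67 and −0.63, and erythroid genes lie at 0.36 in pups nursed by affected dams.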

How the data were processed

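Polyadenylated RNA of 23 livers, 1 library per animal, had been sequenced from directional libraries, per the labels' protocols. FastQC, STAR, HTSeq and DESeq2 are named in the submitters' processing notes, without versions or roles, and nothing read here states the genome build, the annotation or how multiply matching reads were treated. The deposited table holds whole-number gene counts, taken as raw although the authors named it as normalised, since DESeq2's size factors on them lay far from 1.

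Samples were grouped by the treatment in their labels. A mean count of at least 10 across all 23 libraries was required, which left 14466 of 49585 genes, and these were tested in edgeR 4.0.16 (R 4.3.3; TMM, robust quasi-likelihood, 1 mean per group, no covariates), with Benjamini-Hochberg adjustment over all of them. All p-values are two-sided. SE was taken as the fold change over the root of F. DESeq2 1.42.0 and limma 3.58.1 (voom) were alternatives, beside other filters, scalings and left-out libraries. DESeq2 gave an adjusted p to 13290 genes. The main script was tested on simulated data. Depth was similar between groups, and the number of animals limits precision.

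Groups, lists and tests were chosen with earlier results of these data known, and the synthetase lists after their values were seen. Genes were named by a rule: the 8 higher and 8 lower with the smallest p at a mean count of at least 50, the 5 of each direction with the largest change among those without overlap, up to 3 members of each list by p, and a set of genes of growth, lipid, sugar and matrix biology. Predicted genes were left out, and some genes taken by this rule go unreported. Others, among them Klf1, Slc4a1, Trim10, Pdhb, Cfp, Por and the further members of lists, were named after their values were seen. Promoters were matched by symbol to RefSeq's GRCm38.p6 table and motifs were searched on both strands.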

Additional observations from a re-analysis of the deposited data

Results flagged for a closer look

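In 143 named genes each group of 6 libraries was searched for 1 library whose gap to its nearest neighbour took more of the group's range than Dixon's limit, and 18 of 286 groups held one, where chance alone gives about 1 in 20. Among genes described above, MetS-Ct_149 was at 67.3 CPM of Sfxn1 and MetS-Ct_97 at 236 CPM of Tkfc, both below the rest of MetS-Ct. Within Ct-Ct, Ct-Ct_33 was at 46.0 CPM of Tk1, and Ct-Ct_130 at 45.0 CPM of Gtf2b, 99.8 CPM of Atf4 and 26.6 CPM of Igf2, each above the other 5. Ct-Ct_10 was at 191 CPM of Mlxipl, below them.

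Other values of this kind were lower in MetS-Ct_97 for Stat2 (85.7 CPM) and in Ct-Ct_10 for the bile salt pump Abcb11 (672 CPM). They were higher in MetS-Ct_97 for the potassium channel gene Kcnk6 (6.83 CPM), in Ct-Ct_4 for Id3 (25.1 CPM) and in Ct-Ct_33 for mt-Nd4 (3549 CPM), mt-Cytb (10597 CPM) and Ccr2 (2.62 CPM). Muscle transcripts stood out in Ct-Ct_10, with Acta1 at 2.30 CPM, Myh1 at 1.997 CPM and Actn3 at 0.307 CPM, and MetS-Ct_149 was the MetS-Ct library with Myh1 above 0, at 0.0376 CPM. The summed level of the 6 skeletal muscle markers tested was 0.669 to 1.32 CPM in MetS-Ct and 0.741 to 6.99 CPM in Ct-Ct. Their median log2 fold change of −2.77 turned to 0.11 without Ct-Ct_10.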

How the results depend on the processing

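Depth was 23996005 to 32503461 counts in MetS-Ct and 25006606 to 28675811 in Ct-Ct, and 6 animals a group, with litter unknown, limit what can be called. Genes called for MetS-Ct against Ct-Ct stayed at 0 under DESeq2's size factors, limma-voom, no filter on low counts, filterByExpr, a fit of the 12 libraries, each library left out and MetS-Ct_70 and MetS-Ct_97 left out together, and were 12 under DESeq2. Genes at an unadjusted p under 0.05 ranged from 458 without MetS-Ct_70 and MetS-Ct_97 and 488 without Ct-Ct_139 to 1373 without MetS-Ct_149, against 854 (1301 with no filter). DESeq2 called 37 genes for MetS-MetS against Ct-MetS, 4 for the difference between the nursing settings and 97 for MetS-Ct against Ct-MetS, where filterByExpr gave 17, and the cause was not tested. Leaving out 1 library gave 0 to 31 calls for MetS-MetS against Ct-MetS, with 31 without MetS-MetS_39 and 1 without MetS-MetS_154.

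Signs turned without MetS-Ct_70 and MetS-Ct_97 for Igfbp2 (−0.064), Srebf2 (0.028), Mcm6 (0.013), Plagl1 (−0.0094), Cdkn1c (−0.020) and Cyp7a1 (−0.11), and under limma-voom for Col1a1 (0.12). They turned within the range given by leaving out 1 library for Vil1 (−0.15 to 0.13), Acta1 (−4.97 to 0.25), Plagl1 (−0.068 to 0.22), Igf2 (−0.67 to 0.35) and Col1a1 (−0.28 to 0.23). The 16 genes named by smallest p kept their sign in every setting run. They were chosen on these same libraries, most of which each setting shares, so that is no independent check. The 12 DESeq2 calls passed under no edgeR or limma-voom setting that used all libraries. Counts of list members with libraries left out or rescaled were added after seeing the data. No paired analysis was possible because animal numbers are not shared between the groups.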

Other observations

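Markers of the zones of the liver lobule showed few differences in control-nursed pups. Of 10 periportal markers 2 lay higher in MetS-Ct, at a median difference of 0.26 (log2), and 0 of 11 pericentral markers did, at a median of −0.14. Gls2, the periportal glutaminase, was at 405 to 586 CPM in MetS-Ct (median 419), against 274 to 417 CPM in Ct-Ct (median 371), or 0.35 ± 0.15. Glul, the pericentral glutamine synthetase, was at 456 to 1021 CPM (median 637), against 664 to 1085 CPM (median 832), or −0.31 ± 0.24, and overlapped. Without MetS-Ct_70 and MetS-Ct_97 together 0 periportal markers lay higher, as without any 1 of MetS-Ct_97, Ct-Ct_129 and Ct-Ct_139, and the medians were 0.25 and −0.10. In pups nursed by affected dams 4 pericentral markers lay higher, against 8.56% of all genes there, with a median of 0.39.

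Fkbp5, a glucocorticoid-induced co-chaperone, and Cyp4a10, a PPAR-alpha target, lay higher with prenatal exposure in both nursing settings. Fkbp5 was at 87.9 to 219 CPM in MetS-Ct (median 193), against 59.8 to 205 CPM in Ct-Ct (median 82.8), or 0.77 ± 0.33, and differed by 0.82 ± 0.35 in pups nursed by affected dams. Cyp4a10 was at 40.7 to 1086 CPM (median 274), against 29.3 to 193 CPM (median 112), or 1.88 ± 0.77 (1.16 without MetS-Ct_53), and differed by 1.74 ± 0.79 in pups nursed by affected dams. Neither passed after adjustment in edgeR. Fkbp5 was the 1 higher gene of 18 tested on its list of glucocorticoid response genes and metallothioneins. It missed the criterion without MetS-Ct_70 and MetS-Ct_97 together. The same held without any 1 of MetS-Ct_53, MetS-Ct_97, MetS-Ct_120, Ct-Ct_4, Ct-Ct_33, Ct-Ct_129 and Ct-Ct_139. Cyp4a10 missed it without MetS-Ct_53. Cyp4a10 was 1 of 2 higher genes among 22 tested PPAR-alpha and fasting targets, with 0 lower and a median of 0.13. In pups nursed by affected dams 1 of these 22 lay higher and 0 lower, against 8.56% and 7.02% of all genes. Stat5b, the factor that carries growth hormone signals, differed by −0.30 ± 0.13 in control-nursed pups and by −0.48 ± 0.13 in the others.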
